A study of Schizosaccharomyces pombe with 4 samples.

Results

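The genes described here are the very short protein-coding genes of the fission yeast Schizosaccharomyces pombe, those whose annotated span from start to end is under 800 bases. The rule uses annotation alone and takes protein-coding entries of the 3 nuclear chromosomes that lie at least 100 kb from the ends of chromosomes I and II. No measured value is part of the rule, but earlier results of these data were known when it was set. The rule gave 429 genes, 210 on chromosome I, 147 on chromosome II and 72 on chromosome III. They make up 8.58% of the internal coding genes that meet the same rule on position, and the other 4569, of 800 bases or more, are called longer genes here. The table holds 7023 features in all, 5123 of them nuclear protein-coding genes.

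RNA was measured in 4 strand-specific libraries, 2 from spt6-1, a strain that carries a mutant allele of spt6, and 2 from a prototrophic wild type (WT). Cells of both strains were cultured in yeast extract medium at 30 °C and held at 37 °C for 2 hours before harvest, so the WT libraries carry the temperature shift as well. Only polyadenylated RNA entered the libraries. Whether the replicates came from separate cultures is not stated, so a p-value covers only the spread between the libraries at hand, which may be technical. The series is about the part that Spt6 plays in transcription within genes and on their antisense strand.

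Spt6 is a histone chaperone that travels with RNA polymerase II and puts nucleosomes back behind it. When nucleosomes are not restored, promoters hidden inside transcribed regions can start RNA on either strand, which is seen as short sense transcripts and as antisense RNA. A very short gene has a body of only a few nucleosomes, and in yeast many such genes encode abundant proteins, among them the proteins of the ribosome, histones and small redox enzymes.

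The genes ranged from 99 to 799 bases with a median of 606, and their coding sequences from 75 to 786 bases with a median of 351. Introns were annotated in 203 of them, and in 145 the annotation held no untranslated region, so that only the coding sequence was counted. A gene name was given for 263 of the 429, and the other 166 had a systematic name only. An opposite coding gene overlapped 131 of them, 57 of which lay wholly inside it, and 246 had no annotated feature on the opposite strand. Where a feature lies opposite, antisense reads of the short gene and sense reads of that feature are the same reads. A stretch of 36 bases that also occurs elsewhere in the genome was found in 46 of the genes, and copies covered over 30% of 8 of them, where reads cannot be assigned with certainty. These are SPAC589.10c, ubi3, rps801, rpl1201 and the mating-type genes mat1-Mm, mat1-Mc, mat3-Mm and mat3-Mc.

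The shortest were ost4, with 99 bases, a subunit of the oligosaccharyltransferase, SPAC20G4.09 with 120, mat1-Mm and mat3-Mm with 129 and new9 with 174. At the upper limit, tim8 and SPBC27.01c (798 bases each), dss1 and rec27 (799 bases each) were the last inside, and SPBC887.08 (803 bases), rps7 and rpl2302 (807 bases each) the first outside. Antisense RPKM of dss1, a proteasome subunit, were 1.39 and 1.74 RPKM in spt6-1, against 0.139 and 0.218 RPKM in WT. Just outside, rpl2302 had 1.90 and 1.51 antisense RPKM in spt6-1, against 0.103 and 0 in WT, and rps7 had 6.55 and 4.30 in spt6-1, against 0.449 and 0.504 in WT.

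Stretches of 120 bases just before the annotated start are shown for 2 ribosomal protein genes and 2 histone genes, since the called sense changes of these groups had opposite signs, 10 of 86 ribosomal protein genes lower and 3 of 3 histone genes higher. Among all nuclear coding genes 6.86% were called lower and 11.1% higher. Coordinates are those of ASM294v2, the build the labels name. The bases were read from the RefSeq assembly ASM294v3, whose 3 nuclear chromosomes have the same lengths and on which all 429 coding sequences begin with ATG and end with a stop codon. Capitals mark HomolD, the element of fission yeast ribosomal protein promoters, searched as CAGTCACA on both strands, and the AACCCT box of histone promoters, searched as AACCCT on both strands. No HomolD match overlaps an AACCCT match in these stretches. The stretches are rpp203 at chrI:3868962-3869081 (plus strand), rpl4301 at chrII:260026-260145 (minus strand), hhf1 at chrI:4699545-4699664 (minus strand) and hhf3 at chrII:3529537-3529656 (plus strand), each written 5′ to 3′ on the strand of its gene.
rpp203: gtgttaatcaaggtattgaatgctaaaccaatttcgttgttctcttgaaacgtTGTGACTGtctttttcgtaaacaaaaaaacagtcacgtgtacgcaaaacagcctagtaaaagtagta
rpl4301: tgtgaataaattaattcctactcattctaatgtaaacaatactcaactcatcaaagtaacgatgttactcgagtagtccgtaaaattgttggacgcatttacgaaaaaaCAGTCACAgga
hhf1: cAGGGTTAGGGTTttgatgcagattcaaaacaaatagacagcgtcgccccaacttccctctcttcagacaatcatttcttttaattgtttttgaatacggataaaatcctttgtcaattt
hhf3: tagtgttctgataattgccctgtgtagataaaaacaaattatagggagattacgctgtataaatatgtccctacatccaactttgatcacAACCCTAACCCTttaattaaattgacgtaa

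HomolD begins 67 bases before the start of rpp203 and 11 bases before that of rpl4301. The AACCCT box stands as a doubled copy in both histone stretches, beginning 119 bases before the start of hhf1 and 30 bases before that of hhf3. In windows of 250 bases before to 50 bases after the start, HomolD was found in 47 of the 429 very short genes (11.0%), against 127 of 5122 nuclear coding genes (2.48%). Of those 47 genes, 45 encode cytosolic ribosomal proteins, whose very short members number 86, so that 52.3% of these promoters hold it. The AACCCT box was found in 67 of 429 very short genes (15.6%) and in 485 of 5122 coding genes (9.47%), with 26 of the 67 in cytosolic ribosomal protein genes (30.2% of the 86) and 3 in the very short histone genes, which are all of these. The core of the cAMP response element, TGACGT, stood in 29 of 429 (6.76%) and 298 of 5122 (5.82%). A match is a match of letters and does not show that a factor binds there.

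Levels are given as RPKM, in which reads are divided by the length of the feature and by the size of the library, for both strands of each feature. Sense reads recovered from the RPKM and summed over all features came to 39693042 and 16894607 in spt6-1 replicates 1 and 2, and 36520471 and 17093322 in WT. Features can overlap, so a read may count more than once in these sums. The very short genes took 2760156 and 1468243 of the summed reads in spt6-1 and 3927371 and 1741729 in WT. Antisense depth is thin at this length. The median very short gene had 30 and 17 antisense reads in spt6-1, against 8 and 4 in WT, and 14 and 23 genes had no antisense read in spt6-1, against 65 and 100 in WT. The spt6 RNA itself was at 12.7 and 8.32 sense RPKM in the spt6-1 libraries, against 65.5 and 61.6 RPKM in WT, so both spt6-1 libraries stood apart from both WT libraries.

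Most very short genes carried more antisense RNA in spt6-1. Their median antisense level was 1.91 and 1.75 RPKM in the spt6-1 libraries, against 0.409 and 0.373 RPKM in WT, while the median sense level was 38.5 and 39.0 RPKM in spt6-1, against 35.9 and 36.3 RPKM in WT. The antisense medians of the groups were far apart and the sense medians close together. Changes were tested on log2(RPKM + 0.5) with limma, adjusted by Benjamini-Hochberg over all nuclear coding genes on the antisense strand, with a threshold of 0.05, and a change so measured understates that of weakly expressed genes. The antisense level rose in 302 and fell in 8 of the 424 very short genes above 0 in any library, which is 70.4% and 1.86% of the 429. Over all nuclear coding genes tested, 80.6% rose and 1.52% fell. The median log2 change was 1.08 in the very short genes and 1.48 over all coding genes tested. Both spt6-1 libraries lay above both WT libraries in 320 very short genes and below both in 15, against 86.4% and 3.65% of all nuclear coding genes. On the sense strand these orders were seen in 33.3% and 30.5% of all nuclear coding genes, and in 137 and 148 very short genes. Antisense reads were 0 in every library in SPAC1F12.03c, gpm1, new14, SPBC3E7.17 and SPCC417.15.

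**Figure D1:**
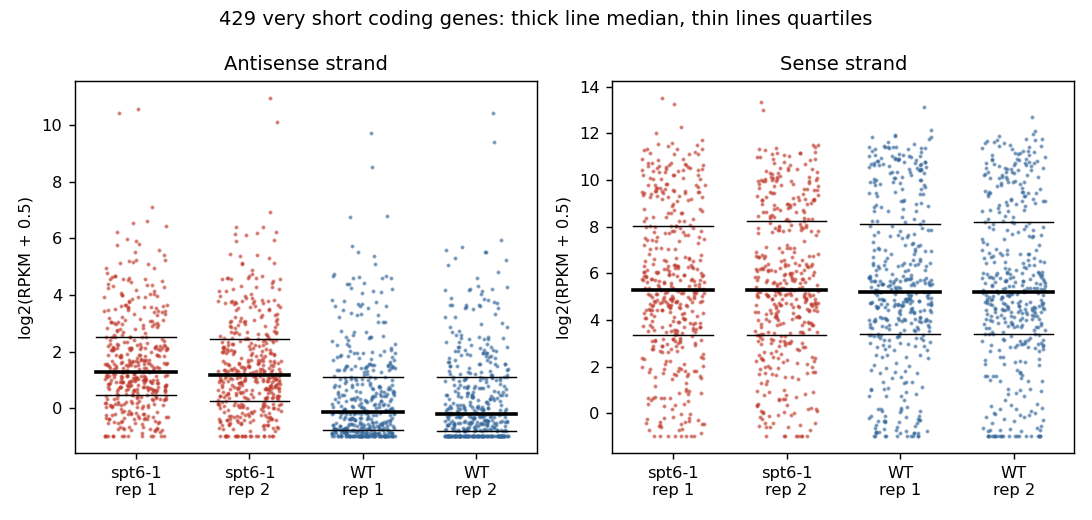
Level of each of the 429 very short genes in each library, as log2(RPKM + 0.5), on the antisense strand (left) and the sense strand (right); points are genes, the thick line is the median and thin lines are quartiles. The antisense median is at 1.91 and 1.75 RPKM in spt6-1, against 0.409 and 0.373 RPKM in WT, and the sense medians lie close together in all 4 libraries.

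The median antisense gain was smallest in the shortest genes and largest in the longest, but did not climb at every step. In the 87 genes under 400 bases the antisense level rose in 47.1%, with a median log2 change of 0.58. In those of 400 to 599 bases it rose in 69.6% of 125, with a median of 1.08, and in those of 600 to 799 bases in 80.2% of 217, with a median of 1.20. Genes of 800 to 1199 bases, the next class up, had a median of 1.04 and 75.5% risen, so the limit of 800 bases marked no step. The median was 1.38 in genes of 1200 to 1599 bases, 1.64 in those of 1600 to 2399 bases and 1.95 in those of 5000 bases or more. Between these it was 1.62 at 2400 to 3199 bases and 1.63 at 3200 to 4999 bases. The share risen was highest at 1600 to 2399 bases, with 85.7%. In the classes above that it was 80.0%, 76.2% and 76.0%, so the share did not follow length there. Across the 424 very short genes Spearman's rho of length and antisense log2 change was 0.16. It was also 0.16 across the 4993 internal coding genes, and genes of one library are not independent and shorter genes hold fewer reads. The median longer gene had 248 antisense reads in spt6-1 replicate 1, against 30 in the median very short gene. Expression differed along the very short classes too. The median WT sense level was 7.63 and 7.41 RPKM under 400 bases and 53.0 and 56.3 RPKM at 600 to 799 bases. Among very short genes under 5 RPKM in WT the antisense level rose in 46.1%, with a median log2 change of 0.49. Whether the antisense gain goes with length or with expression was not tested.

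**Figure D2:**
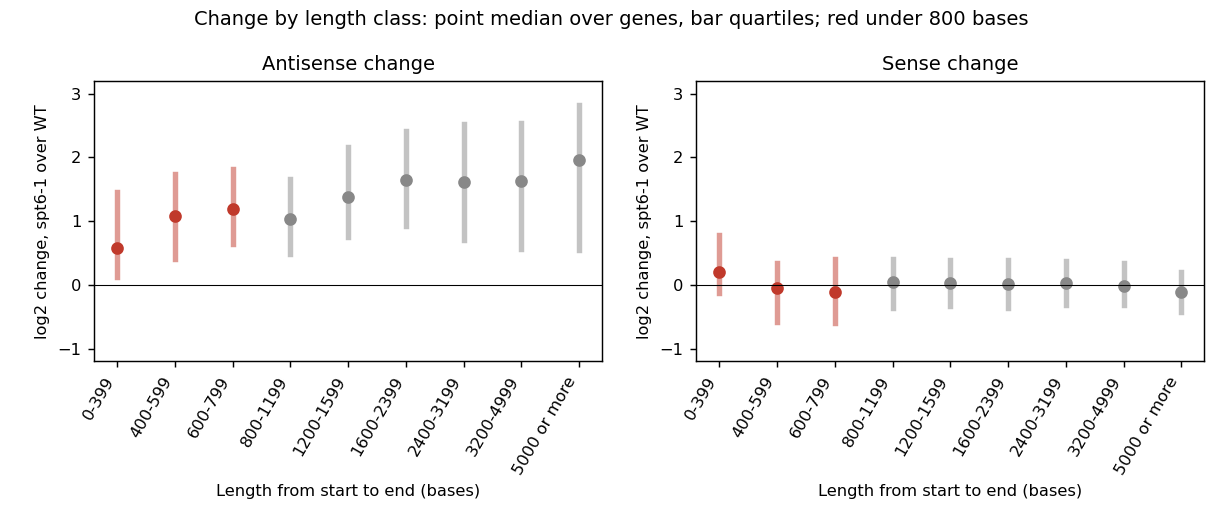
Median (point) and quartiles (bar) of the log2 change, spt6-1 over WT, in 9 classes of gene length, antisense on the left and sense on the right, with the very short classes in red. The antisense median is 0.58 under 400 bases and 1.04 to 1.95 in the classes of 800 bases or more, and the sense medians stay near 0.

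The distance between very short and longer genes was compared library by library. The median antisense level of the very short genes, on the log2(RPKM + 0.5) scale, was -0.97 and -0.85 relative to that of the longer genes in spt6-1 and -0.16 and -0.17 in WT. The difference between the groups was -0.74, with p = 0.333 in an exact two-sided permutation test over 2 against 2 libraries, the smallest p this design allows. Against genes of 800 to 1199 bases alone the distance was -0.31 and -0.28 in spt6-1 and -0.20 and -0.25 in WT, a difference of -0.072 (exact permutation p = 0.333). The median sense level of the very short genes stood 0.44 and 0.49 above that of the longer genes in spt6-1 and 0.39 and 0.34 above it in WT, a difference of 0.097 (exact permutation p = 0.333). In all 3 comparisons the values of the groups did not overlap, and that against genes of 800 to 1199 bases was the smallest.

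Genes free of any annotated opposite feature were taken on their own, where read-through from a neighbouring gene was not tested. In the 246 very short genes of this kind the median antisense level was 1.34 and 1.28 RPKM in spt6-1, against 0.151 and 0.171 RPKM in WT, and the level rose in 72.8%. In the 1806 longer genes of this kind the medians were 2.94 and 2.45 RPKM in spt6-1, against 0.198 and 0.196 RPKM in WT, and 93.8% rose. The WT levels of the length classes were thus close, and those in spt6-1 were lower in the very short genes. The distance between the length classes was -0.90 and -0.73 in spt6-1 and -0.10 and -0.053 in WT, on the log2 scale, with a difference of -0.74 (exact permutation p = 0.333). In the 131 very short genes with an opposite coding gene, the median was 3.87 and 3.17 RPKM in spt6-1, against 1.06 and 1.21 RPKM in WT, with 65.6% risen and a median log2 change of 1.07. In the 2049 longer genes with an opposite coding gene, 68.5% rose, with a median log2 change of 1.10, so the changes of the length classes lay close together there.

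The order of the length classes turned in highly expressed genes. Among genes with a mean WT sense level of 500 RPKM or more, the 94 very short ones had median antisense levels of 1.73 and 1.37 RPKM in spt6-1, against 0.0896 and 0.0829 RPKM in WT. The 143 longer ones had 0.864 and 0.662 RPKM in spt6-1, against 0.0358 and 0.0495 RPKM in WT. The antisense level rose in 89.4% of the very short and 82.5% of the longer genes of this class, with median log2 changes of 1.63 and 1.02. In both length classes the median gene had only 2 and 1 antisense reads in WT, and these WT medians lay below the pseudocount of 0.5 RPKM. The log2 changes here, and the distances on the same scale, therefore depend on the pseudocount. Whether the fold gain itself differs between the length classes was not tested. The distance between the length classes was 0.71 and 0.69 in spt6-1 and 0.14 and 0.085 in WT, a difference of 0.59 (exact permutation p = 0.333). At a WT sense level of 5 to 50 RPKM the same difference was -0.93, and at 50 to 500 RPKM it was -0.75. Under 5 RPKM it was 0.24. Many of the highly expressed very short genes encode cytosolic ribosomal proteins. The very short members of that group, 86 genes, had a median WT sense level of 1454 RPKM and a median antisense log2 change of 1.63. Whether the turn goes with length, expression or this gene group was not tested.

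Antisense reads were a small share of all reads at very short genes. Of the reads on either strand of these genes, 2.42% ± 0.135 were antisense in spt6-1 and 0.988% ± 0.161 in WT (mean ± SD, n = 2 each; exact permutation p = 0.333). At the longer genes the share was 11.4% ± 0.419 in spt6-1 and 8.13% ± 0.409 in WT. A pair of loci inside opposite transcripts supplied much of the share at very short genes. SPBC1347.14c had 1544 and 1116 RPKM in spt6-1, against 365 and 687 RPKM in WT, and SPAC27E2.13, with no sense read in any library, had 1402 and 2004 RPKM in spt6-1, against 847 and 1389.8 RPKM in WT. Without them, an alternative chosen after seeing the data, the share differed by 0.97 percentage points between the groups, against 1.43 with them. The difference was 0.699 points without the genes that overlap an opposite coding gene and 4.04 points with a length limit of 600 bases.

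The largest antisense rise was at sfc7 (SPAC1250.07; chromosome I, 5097850 to 5098212, minus strand), which encodes a subunit of the RNA polymerase III factor TFIIIC and has no opposite feature. Its antisense level was 30.4 and 23.3 RPKM in spt6-1, against 0.997 and 0.480 RPKM in WT, with a log2 change of 4.48 (SE 0.25, limma adjusted p = 3.76e-06). The sense level, 262 and 244 RPKM in spt6-1, against 233 and 239 RPKM in WT, changed by 0.10 on the log2 scale (adjusted p = 0.785). The groups did not overlap on the antisense strand, and on the sense strand all 4 libraries lay close together.

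The meiotic gene mug166 (chromosome II, 1247411 to 1248188, plus strand) had 19.0 and 12.8 RPKM in spt6-1, against 0.716 and 0.0747 RPKM in WT, a log2 change of 4.27 (SE 0.36, limma adjusted p = 1.15e-05). For spc19, a subunit of the DASH complex that joins kinetochores to microtubules, the antisense level was 11.0 and 15.1 RPKM in spt6-1, against 0.610 and 0.636 RPKM in WT (log2 change 3.57). SPAC17A5.05c had 11.0 and 13.2 RPKM in spt6-1, against 0.449 and 0.313 RPKM in WT and SPAP8A3.10 had 30.3 and 18.8 RPKM in spt6-1, against 2.05 and 1.24 RPKM in WT. In each of these 4 genes the lower spt6-1 library was well above the higher WT library. The ribosomal protein genes rpl4102, rps29 and rpl2801 also stood among the 10 largest rises, as did SPAP27G11.16 and SPBC15D4.08c, which are described further on.

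Antisense RNA fell in 8 very short genes, 1.86% of the 429, near the 1.52% of all nuclear coding genes tested. Of the 8, 6 overlap an opposite coding gene and 2 have no annotated opposite feature. The 5 largest falls were at SPAC9G1.14, SPAC1786.04, gpx1, SPAC13G6.13 and SPCC4F11.05, all of which overlap an annotated coding gene on the opposite strand. For gpx1, the glutathione peroxidase gene, the antisense level was 1.28 and 0.539 RPKM in spt6-1, against 2.30 and 2.32 RPKM in WT (log2 change -1.04, limma adjusted p = 0.0073), and 25 bases of it overlap new17. SPAC1786.04 had 3.87 and 5.65 RPKM in spt6-1, against 9.84 and 11.1 RPKM in WT (log2 change -1.08). Both groups were apart in these genes. With 1 library left out, 3 of the 8 remained called without spt6-1 replicate 1, 3 without spt6-1 replicate 2, 6 without WT replicate 1 and 5 without WT replicate 2.

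**Figure D3:**
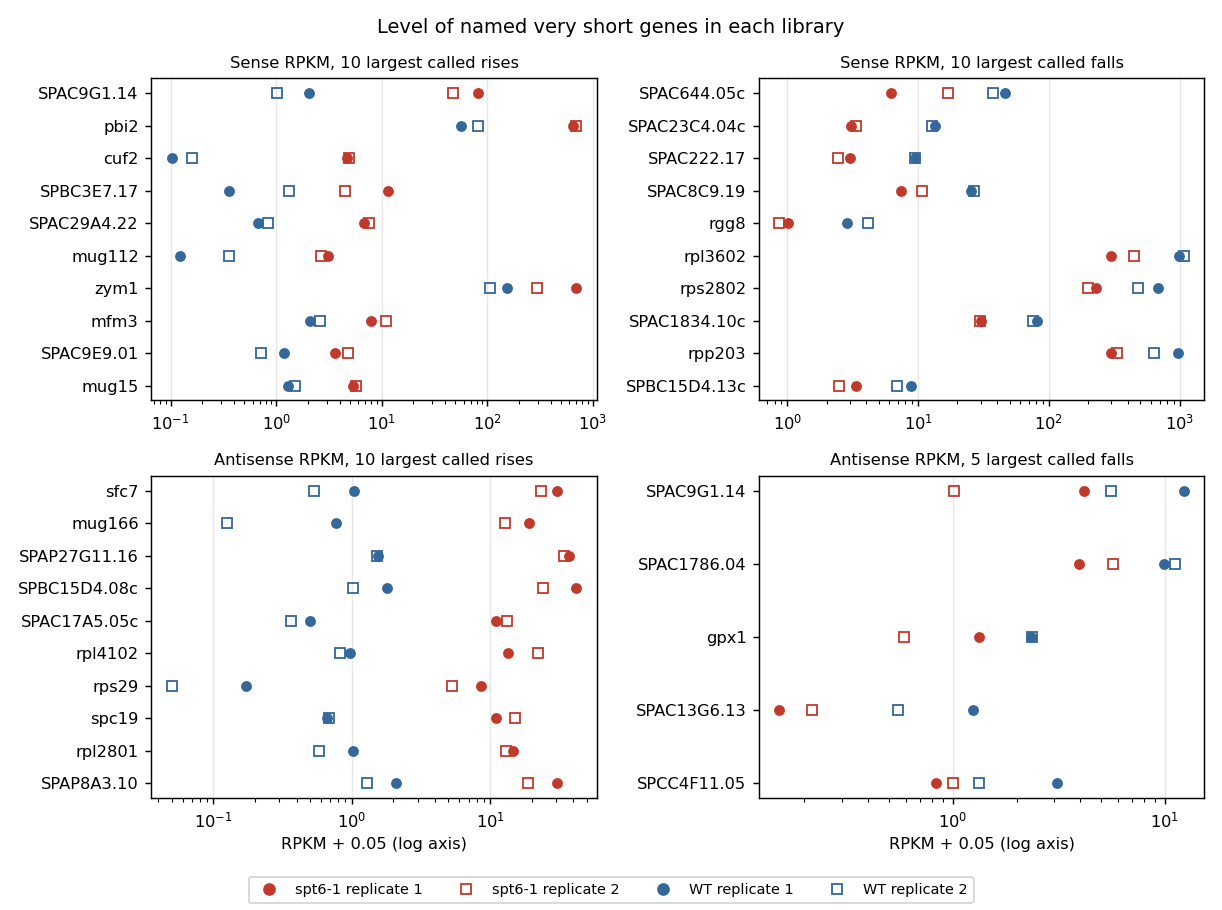
RPKM in each library for the very short genes with the largest called changes, on a log axis after adding 0.05, with spt6-1 in red and WT in blue. The lower row shows sfc7 at 30.4 and 23.3 antisense RPKM in spt6-1, against 0.997 and 0.480 RPKM in WT; in every gene plotted the libraries of the groups do not overlap.

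On the sense strand few very short genes changed. The level rose in 42 and fell in 30 of the 425 above 0 in any library, which is 9.79% and 6.99% of the 429, adjusted over all 6923 nuclear features tested. Among nuclear coding genes 11.1% rose and 6.86% fell, and the shares of the very short genes lay near these. The median log2 change was 0.0054 in the very short genes and 0.020 in the longer ones. With each library centred on its median the split was 28 higher and 42 lower, and with quantile normalization 21 higher and 59 lower. With 1 library left out, 5 of the 42 rises remained called without spt6-1 replicate 1, 10 without spt6-1 replicate 2 and 12 without either WT replicate. Of the 30 falls, limma called 0 without spt6-1 replicate 1, where 25 had an unadjusted p under 0.05, 3 without spt6-1 replicate 2 and 4 without either WT replicate. No called gene changed sign in the fits with 1 library left out, and 1 of the 42 rises did under quantile normalization. The genes SPAC27E2.13, SPAC22F8.03c, new14 and SPBC16G5.19 had no sense read in any library.

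The largest sense rise was at SPAC9G1.14 (chromosome I, 1968434 to 1969093, minus strand), 261 bases of which overlap the opposite gene wis4, a kinase of the stress-activated pathway. Its sense level was 82.2 and 47.3 RPKM in spt6-1, against 1.98 and 0.969 RPKM in WT, with a log2 change of 5.04 (SE 0.36, limma adjusted p = 0.000533). Its antisense level was 4.11 and 0.965 RPKM in spt6-1, against 12.3 and 5.55 RPKM in WT and fell (log2 change -1.76). Both spt6-1 libraries lay above both WT libraries on the sense strand and below them on the antisense strand.

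The gene pbi2 (SPCC338.12; chromosome III, 1355008 to 1355680, minus strand), whose budding yeast namesake encodes a small inhibitor of a vacuolar protease, had 657 and 699 RPKM in spt6-1, against 55.9 and 81.2 RPKM in WT. Its log2 change was 3.32 (SE 0.28, limma adjusted p = 0.000862), and the groups were far apart at a high level of expression. For zym1, the metallothionein gene, the sense level was 702 and 299 RPKM in spt6-1, against 154 and 105 RPKM in WT (log2 change 1.84, adjusted p = 0.0344). The spread between the spt6-1 replicates of zym1 was wide, yet the lower of them was above both WT values.

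Weakly expressed genes linked to mating and meiosis stood among the other large rises. The gene cuf2, which encodes a regulator of meiotic transcription and lies wholly inside SPCC584.03c on the opposite strand, had 4.68 and 4.88 RPKM in spt6-1, against 0.0521 and 0.109 RPKM in WT on the sense strand (log2 change 3.19). For mfm3, 1 of the M-factor pheromone precursor genes, it was 7.92 and 11.0 RPKM in spt6-1, against 2.03 and 2.54 RPKM in WT (log2 change 1.82), and 22.2% of mfm3 is shared with copies elsewhere. For mug112 it was 3.02 and 2.60 RPKM in spt6-1, against 0.0737 and 0.308 RPKM in WT, and for mug15 5.33 and 5.62 RPKM in spt6-1, against 1.25 and 1.45 RPKM in WT. SPBC3E7.17, SPAC29A4.22 and SPAC9E9.01 completed the 10. In all 10 the spt6-1 libraries stood above the WT libraries, and for most of the genes the WT level was a few RPKM or less.

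The largest sense fall was at SPAC644.05c (chromosome I, 2678518 to 2679209, minus strand), which lies wholly inside the opposite gene pct1, with 6.19 and 16.7 RPKM in spt6-1, against 46.1 and 37.5 RPKM in WT (log2 change -1.97, SE 0.44, limma adjusted p = 0.0247). Its antisense level rose (log2 change 1.82). SPAC23C4.04c had 3.04 and 3.28 RPKM in spt6-1, against 13.4 and 12.6 RPKM in WT on the sense strand and fell on the antisense strand too (log2 changes of -1.89 and -0.72). SPAC222.17 had 2.97 and 2.41 RPKM in spt6-1, against 9.35 and 9.41 RPKM in WT, SPAC8C9.19 had 7.30 and 10.6 RPKM in spt6-1, against 25.4 and 26.6 RPKM in WT and SPAC1834.10c had 29.9 and 29.8 RPKM in spt6-1, against 80.6 and 75.1 RPKM in WT. All of these were lower in both spt6-1 libraries than in either WT library. The 10 largest falls also held rgg8, SPBC15D4.13c and 3 ribosomal protein genes.

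The cytosolic ribosomal proteins form the largest group, with 86 of the 429 genes. On the sense strand 10 fell and 0 rose, against 6.86% and 11.1% of all nuclear coding genes, and 80 of the 86 had a negative log2 change, with a median of -0.65. On the antisense strand 79 rose (91.9%) and 0 fell, against 80.6% and 1.52% of all nuclear coding genes, with a median of 1.63. Limma at an unadjusted p under 0.05 and voom on recovered reads also gave 0 sense rises and 0 antisense falls. Their mean sense level had a median over genes of 863 RPKM in spt6-1 and 1454 RPKM in WT, and their mean antisense level a median of 1.65 RPKM in spt6-1 and 0.0818 RPKM in WT. The 10 that fell were rpl2701, rpl3001, rpl3602, rpl3801, rpp103, rpp203, rps1102, rps1902, rps2401 and rps2802.

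Among them, rpl3602 had 299.8 and 448 RPKM in spt6-1, against 981 and 1079 RPKM in WT on the sense strand (log2 change -1.49, SE 0.33, limma adjusted p = 0.0229) and 3.98 and 2.89 RPKM in spt6-1, against 0.278 and 0.193 RPKM in WT on the antisense strand. The stalk protein gene rpp203, whose upstream stretch with HomolD is shown above, had 299 and 328 RPKM in spt6-1, against 966 and 639.6 RPKM in WT (log2 change -1.33, adjusted p = 0.0312). It lies wholly inside SPAC1071.09c on the opposite strand, and its antisense level was 2.57 and 3.39 RPKM in spt6-1, against 0.0526 and 0.220 RPKM in WT. Sense levels of rps2802 were 228 and 198 RPKM in spt6-1, against 677 and 480.0 RPKM in WT. In these 3 genes the groups did not overlap on either strand.

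Several ribosomal protein genes gained antisense RNA without a called sense change. For rps29 the antisense level was 8.50 and 5.23 RPKM in spt6-1, against 0.123 and 0 RPKM in WT (log2 change 3.69, SE 0.27, limma adjusted p = 6.82e-06), where the WT values rest on 2 reads and 0 reads, and the sense level was 1469.7 and 1327 RPKM in spt6-1, against 1845 and 1855 RPKM in WT (adjusted p = 0.423). The antisense level of rpl4102 was 13.4 and 22.1 RPKM in spt6-1, against 0.925 and 0.773 RPKM in WT and that of rpl2801 was 14.7 and 13.0 RPKM in spt6-1, against 0.976 and 0.532 RPKM in WT. The most abundant of these RNAs in WT were rps20, with 2833 and 2662 RPKM in spt6-1, against 4499 and 4346 RPKM in WT, and rpl4301, with 1938 and 2058 RPKM in spt6-1, against 3856 and 3991 RPKM in WT, neither of which passed the test on the sense strand (adjusted p = 0.271 and 0.123). Their antisense levels rose, with 3.13 and 1.13 RPKM in spt6-1, against 0 and 0.113 RPKM in WT for rps20 and 4.12 and 1.45 RPKM in spt6-1, against 0.107 and 0 RPKM in WT for rpl4301. For rpl1201 the sense level was 3015 and 1922 RPKM in spt6-1, against 3884 and 3329.6 RPKM in WT, and copies cover 80.1% of that gene. Without the ribosomal protein genes, an alternative chosen after seeing the data, the sense level rose in 42 and fell in 20 of 343 very short genes, with a median log2 change of 0.16, and the antisense level rose in 223 (65.0%).

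The 3 very short histone genes moved the other way on the sense strand, where all rose, against 11.1% of all nuclear coding genes. For hhf1, a histone H4 gene (chromosome I, 4698773 to 4699544, minus strand), the sense level was 1422 and 1278 RPKM in spt6-1, against 408 and 448 RPKM in WT (log2 change 1.66, SE 0.29, limma adjusted p = 0.0119). For hhf3, also of histone H4, it was 872 and 814 RPKM in spt6-1, against 304 and 303 RPKM in WT (log2 change 1.47, adjusted p = 0.0126), and for hht2, of histone H3, 1612 and 1006 RPKM in spt6-1, against 506 and 522 RPKM in WT (log2 change 1.31, adjusted p = 0.044). Both spt6-1 values lay above both WT values in every case. On the antisense strand hhf1 fell, with 0.740 and 0.525 RPKM in spt6-1, against 1.19 and 1.96 RPKM in WT, hhf3 rose, with 2.54 and 0.791 RPKM in spt6-1, against 0.0380 and 0.159 RPKM in WT, and hht2 had 0.0459 and 0 RPKM in spt6-1, against 0 and 0 RPKM in WT and was not called. A non-coding RNA is annotated opposite hhf3. Histone genes share sequence with their copies, here 6.22% of hhf1, 13.9% of hhf3 and 11.3% of hht2, and only polyadenylated RNA was measured.

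**Figure D4:**
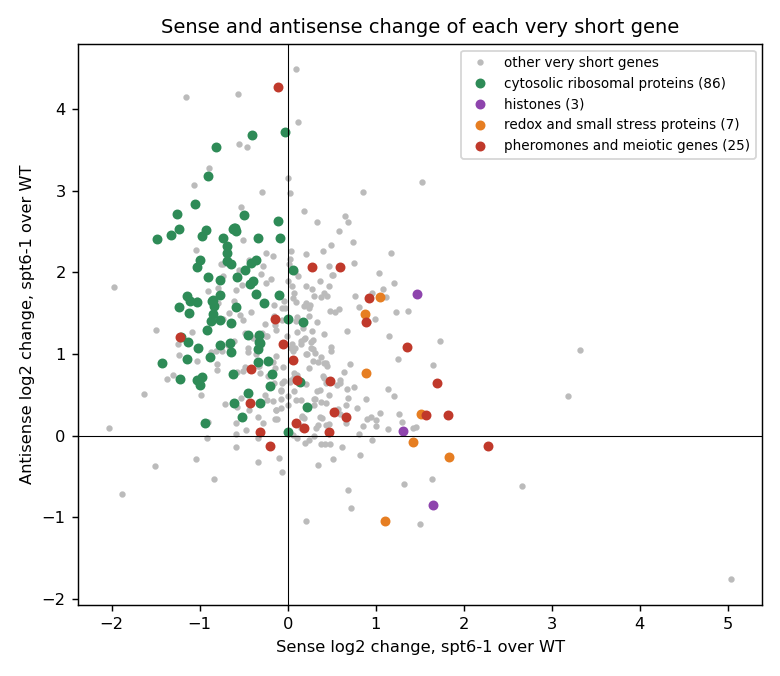
Log2 change, spt6-1 over WT, on the sense strand (horizontal) against the antisense strand (vertical) for each very short gene, with 4 gene groups in colour. Cytosolic ribosomal protein genes lie mostly left of 0 and above 0 (medians of -0.65 and 1.63), and the 3 histone genes lie to the right.

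Of 7 small redox and stress protein genes, 3 rose on the sense strand and none fell, and on the antisense strand 3 rose (42.9%) and 1 fell. Over all nuclear coding genes 11.1% rose and 6.86% fell on the sense strand, and 80.6% rose and 1.52% fell on the antisense strand. The risen genes were zym1, gpx1, with 728 and 565 RPKM in spt6-1, against 298 and 297 RPKM in WT, and the sulfiredoxin gene srx1, with 43.6 and 34.7 RPKM in spt6-1, against 11.5 and 15.3 RPKM in WT, which was chosen after its values were seen. The peroxiredoxin gene tpx1 had 9979.5 and 8252 RPKM in spt6-1, against 3638 and 3137 RPKM in WT, apart between the groups but short of the threshold (log2 change 1.43, adjusted p = 0.0752). For hsp9, a small heat shock protein gene, the sense values were 4935 and 2708 RPKM in spt6-1, against 1633 and 1896 RPKM in WT and for trx1, a thioredoxin gene, 1910.2 and 2055 RPKM in spt6-1, against 781 and 1461 RPKM in WT, neither called. On the antisense strand both rose, with 2.78 and 1.53 RPKM in spt6-1, against 0.348 and 0.242 RPKM in WT for hsp9 and 0.198 and 0.536 RPKM in spt6-1, against 0 and 0 RPKM in WT for trx1.

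Pheromone and meiotic genes numbered 25 and were weakly expressed, with median WT sense levels of 2.93 and 2.55 RPKM. On the sense strand 6 rose and 1 fell, against 11.1% and 6.86% of all nuclear coding genes. Among all very short genes under 5 RPKM in WT these shares were 19.7% and 1.32%. Of the 25, 14 rose on the antisense strand (56.0%, against 80.6% of all nuclear coding genes) and none fell. Their median antisense log2 change was 0.67, against 1.08 for all very short genes. The sense level of mug110 was 38.0 and 43.7 RPKM in spt6-1, against 24.2 and 19.7 RPKM in WT and its antisense level 0.814 and 1.10 RPKM in spt6-1, against 0.0352 and 0.0736 RPKM in WT, and both rose. The antisense level of mug66 was 8.13 and 5.74 RPKM in spt6-1, against 1.63 and 0.945 RPKM in WT. The gene that fell on the sense strand was mug67, with 4.26 and 2.83 RPKM in spt6-1, against 8.73 and 8.83 RPKM in WT (adjusted p = 0.015).

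Of 13 genes of the respiratory chain and ATP synthase, 11 rose on the antisense strand (84.6%, near the 80.6% of all nuclear coding genes), and 0 rose and 1 fell on the sense strand. For qcr10, of complex III, the antisense level was 1.28 and 1.61 RPKM in spt6-1, against 0.136 and 0 RPKM in WT (log2 change 1.78, limma adjusted p = 5.55e-05), for atp20, of ATP synthase, 1.83 and 1.72 RPKM in spt6-1, against 0.184 and 0.288 RPKM in WT and for cox9, of cytochrome oxidase, 0.907 and 0.619 RPKM in spt6-1, against 0.0372 and 0 RPKM in WT. The spt6-1 values lay above those of WT in all 3. Of 10 mitochondrial ribosomal proteins 6 rose on the antisense strand, among them mrpl28 with 6.73 and 7.22 RPKM in spt6-1, against 1.00 and 0.483 RPKM in WT, and 1 rose and 1 fell on the sense strand. Mitochondrial import and assembly had 7 genes, of which 4 rose on the antisense strand, among them tom7 with 4.86 and 4.66 RPKM in spt6-1, against 0.939 and 1.21 RPKM in WT, and 1 rose on the sense strand. Among all nuclear coding genes 11.1% rose and 6.86% fell on the sense strand.

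Small proteins of gene expression were called on the antisense strand at shares that lay on either side of the 80.6% of all nuclear coding genes. Sense calls over all nuclear coding genes were 11.1% higher and 6.86% lower, shares at which lists this small would hold few calls. All 5 translation factors and nascent chain proteins rose on the antisense strand and none was called on the sense strand. The nascent chain gene btf3 had 16.4 and 11.3 RPKM in spt6-1, against 1.10 and 0.816 RPKM in WT, and there a non-coding RNA is annotated opposite it. The initiation factor gene tif512 had 5.55 and 3.56 RPKM in spt6-1, against 0.0857 and 0.358 RPKM in WT and egd2, also of the nascent chain complex, 10.5 and 6.03 RPKM in spt6-1, against 1.27 and 1.23 RPKM in WT. Of 9 Sm, LSm and small splicing proteins 7 rose on the antisense strand and none was called on the sense strand, with 3.17 and 4.36 RPKM in spt6-1, against 0.411 and 0.343 RPKM in WT for smg1 and 1.47 and 1.50 RPKM in spt6-1, against 0.0425 and 0.0888 RPKM in WT for snu13. Of 7 small polymerase subunits and transcription factors 5 rose on the antisense strand, with 1.56 and 2.13 RPKM in spt6-1, against 0.140 and 0.0974 RPKM in WT for rpc10, and none was called on the sense strand.

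The other lists were small, and their shares of antisense rises, apart from the pair of prefoldin genes, lay below the 80.6% of all nuclear coding genes. On the sense strand 11.1% of all nuclear coding genes rose and 6.86% fell. Of 7 kinetochore and spindle genes 5 rose and 1, nnf1, fell on the antisense strand, and 2 rose on the sense strand. Of 5 ubiquitin-like proteins and their enzymes 3 rose on the antisense strand and 2 on the sense strand, among these apc14, of the anaphase-promoting complex, with 22.8 and 25.0 RPKM in spt6-1, against 11.0 and 10.2 RPKM in WT. Of 5 genes of small GTPases and secretion 3 rose on the antisense strand, with 11.3 and 5.92 RPKM in spt6-1, against 1.56 and 0.317 RPKM in WT for vma10, and both prefoldin genes did, with 16.1 and 13.3 RPKM in spt6-1, against 3.19 and 2.18 RPKM in WT for SPAC227.05. The profilin gene cdc3, alone in its list, had 0.0639 and 0.311 RPKM in spt6-1, against 0 and 0 RPKM in WT and was not called by limma (adjusted p = 0.0502), though it was by voom on recovered reads and had an unadjusted p under 0.05. For the other lists with no call in a direction, limma at an unadjusted p under 0.05 and voom gave 0 as well, apart from a few genes on the sense strand. These were 1 lower Sm or splicing gene at an unadjusted p, 2 lower kinetochore genes at an unadjusted p and 1 by voom, 1 higher respiratory gene at an unadjusted p, and 1 lower translation gene by both.

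**Figure D5:**
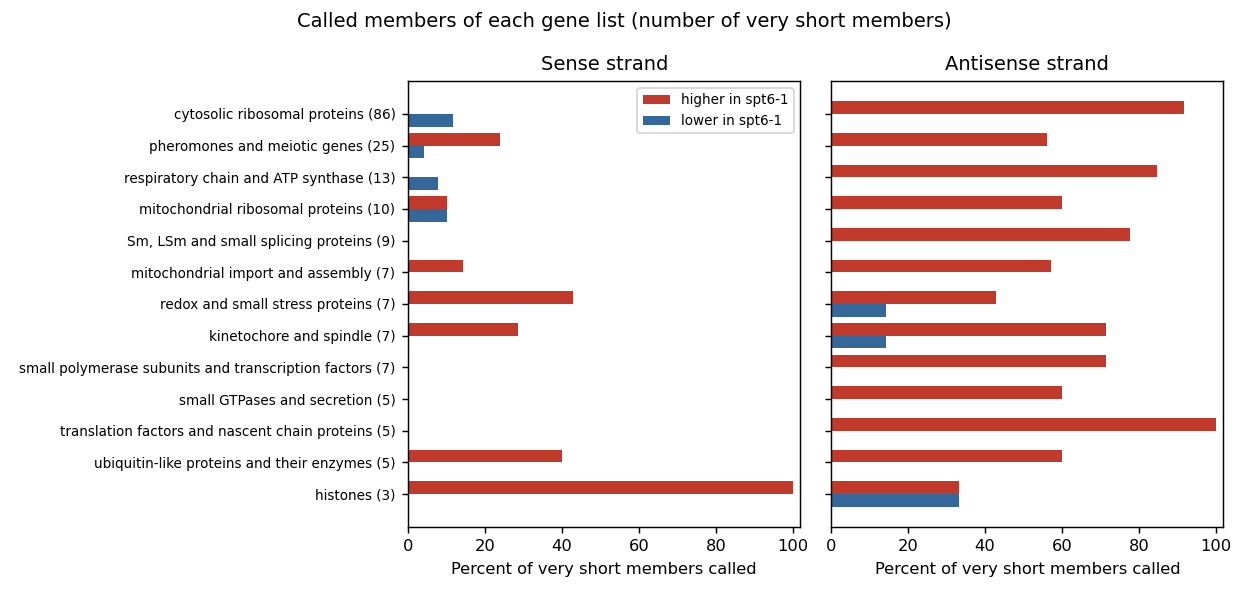
Percent of the very short members of each list called higher (red) or lower (blue) in spt6-1, sense on the left and antisense on the right, with the number of members in brackets. On the antisense strand 79 of 86 cytosolic ribosomal protein genes are higher, and on the sense strand 10 of 86 are lower and all 3 histone genes are higher.

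The RNA of some genes came to be mainly antisense. The antisense RPKM exceeded the sense RPKM in both spt6-1 libraries in 57 very short genes. Taken singly, the spt6-1 libraries had this order in 66 and 65 of the 429, against 669 and 689 of 5123 nuclear coding genes. In 13 of the 57 it was seen in neither WT library, against 196 of the 5123 (3.83%) with such a switch. A WT library with equal values on both strands, as where neither strand held a read, counted as not showing it. The reverse switch was seen in 5. No share over all coding genes was counted for the 57 and the 5. For SPBC15D4.08c (chromosome II, 3025659 to 3026075, minus strand), which has no opposite feature, the antisense level was 42.1 and 23.9 RPKM in spt6-1, against 1.74 and 0.976 RPKM in WT (log2 change 4.15, SE 0.31, limma adjusted p = 7.37e-06). Its sense level fell, with 5.91 and 9.30 RPKM in spt6-1, against 15.8 and 18.7 RPKM in WT (log2 change -1.16, adjusted p = 0.0232). In spt6-1 the antisense value was above the sense value in both libraries, and in WT far below it.

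SPAP27G11.16, which lies inside the opposite non-coding RNA SPNCRNA.750, had 36.9 and 34.4 RPKM in spt6-1, against 1.50 and 1.48 RPKM in WT on the antisense strand and 2.95 and 4.23 RPKM in spt6-1, against 4.77 and 6.27 RPKM in WT on the sense strand. The 5 with the most antisense RNA among the 13 also held SPAC12G12.17, with 56.1 and 43.2 RPKM in spt6-1, against 23.6 and 17.4 RPKM in WT, new17, with 59.2 and 38.7 RPKM in spt6-1, against 13.6 and 11.5 RPKM in WT, and SPAC12B10.15c, with 45.1 and 41.6 RPKM in spt6-1, against 16.5 and 18.1 RPKM in WT. An opposite feature is annotated at each of these 3, and in each both spt6-1 libraries lay above both WT libraries on the antisense strand. The strands of SPAC12G12.17 were already near equal in WT, with 627 and 222 antisense reads against 627 and 229 sense reads. Its sense level was 22.4 and 14.4 RPKM in spt6-1, against 25.3 and 19.3 RPKM in WT. The others among the 13 were bqt2, dni1, moa1, mug67, mug96, rgg8, SPBC16G5.19 and SPBC32H8.01c. Some of them hold few reads, such as moa1 with 0.275 and 0.335 RPKM in spt6-1, against 0 and 0 RPKM in WT on the antisense strand. SPBC16G5.19 had no sense read in any library and no antisense read in WT. It was thus counted through ties at 0 and did not turn from sense to antisense.

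At the other end was gpm1, which encodes phosphoglycerate mutase and had the highest WT sense level of the very short genes, with 11778 and 10336 RPKM in spt6-1, against 9111 and 6649 RPKM in WT (log2 change 0.50, adjusted p = 0.525). No antisense read was recorded for it in any library. A count of 0 allows up to 3 reads, which is 0.137 and 0.222 RPKM in spt6-1 and 0.107 and 0.223 RPKM in WT, by counting error only. For tpx1 the antisense values were 0.0934 and 0 RPKM in spt6-1, against 0.0728 and 0.0760 RPKM in WT. High sense expression was thus seen both with antisense gain, in ribosomal protein genes, and without it, in gpm1 and tpx1.

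The change of the antisense to sense ratio was tested in the same way. It rose in 250 and fell in 33 of 428 very short genes, against 67.2% and 6.35% of all nuclear coding genes, with a median log2 change of 1.14. Of the genes with a sense fall, 24 also had an antisense rise, against 6.07% of all nuclear coding genes with both calls. Another 20 rose on both strands (7.32% of all coding genes), 5 rose on the sense and fell on the antisense strand (0.586%), 258 rose on the antisense strand with no sense call, and 97 were called on neither. The 5 were SPAC9G1.14, SPAC1786.04, gpx1, hhf1 and nnf1. For the 258 and the 97 no share over all coding genes was counted.

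The scale of the antisense change depends on how libraries are set against each other. With each library centred on its median the median antisense log2 change was -1.02 in the very short genes and -0.62 over all coding genes tested, and with quantile normalization -0.23 and -0.090. Without either it was 1.08 and 1.48. The sign of the change thus turned with the scaling. Centring moves all genes alike and leaves their distance as it was, and under quantile normalization the very short genes lay closer to all coding genes.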

How the data were processed

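The authors deposited 1 table of RPKM for sense and antisense strands of each feature and library. TopHat was the aligner and ASM294v2 the build, per the submitters' processing notes. For the counter, annotation release and treatment of multiply mapped reads, nothing is given in the sources used here. Deposited RPKM were turned back into reads with the exon length (sense), the locus length (antisense) and the library denominators, and 100% of values were whole within 0.01 read. The denominator of spt6-1 replicate 1 was 27994342 reads, below its 39693042 sense reads summed over all features, while those of the other libraries were near their summed sense reads. A deposited list of splice junctions was not used.

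The comparison was spt6-1 against WT, with 2 libraries each, on log2(RPKM + 0.5), with limma 3.58.1 in R 4.3.3 (eBayes with a trend, two-sided, Benjamini-Hochberg adjusted, threshold 0.05), over 6923 features (sense), 5117 coding genes (antisense) and 5121 (ratio). Fold changes include the pseudocount. Medians per library were compared by an exact permutation test, whose smallest p is 0.333.

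Members and the 15 gene lists were chosen with earlier results of these data known. The text names the 10 largest called rises and falls on the sense strand, the 10 largest rises and 5 largest falls on the antisense strand, in every list up to 3 genes by smallest adjusted p, the 5 shortest, those next to the length limit, the 5 most expressed in WT, and genes whose antisense level overtook the sense level. Other genes named were chosen after their values were seen. Alternatives were other pseudocounts, a minimum level (1 RPKM sense, 0.5 RPKM antisense, in 2 libraries), a replicate block, leaving out each library, centring, quantile normalization, voom on recovered reads, length limits of 600 and 1000 bases, and leaving out genes with an opposite coding gene. In simulated data, the sense fit called 21 of 50 genes changed 2-fold and 50 of 50 changed 4-fold, and the antisense fit 19 of 50 and 50 of 50. The changed genes were drawn, over all lengths, only from those above a minimum mean number of reads, and the simulated dispersion was fixed. The median very short gene had 8 and 4 antisense reads in WT, and recovery in genes with so few reads was not tested.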

Additional observations from a re-analysis of the deposited data

How the results depend on the processing

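The antisense rise of the very short genes kept its direction with pseudocounts of 0.1 and 1, a minimum level, voom on recovered reads, other length limits and 1 library left out, and turned under centring and quantile normalization. With 1 library left out the antisense share risen ranged from 61.5% to 65.3% and the share fallen from 0.699% to 1.86%, while the sense shares ranged from 2.10% to 3.03% higher and from 0% to 1.17% lower, with medians of -0.020 to 0.017. A lone library is then assumed to vary like the others. Replicate numbers are shared in the labels as numbers only. Same-numbered libraries deviated together with a correlation of 0.339 over 6923 sense features and 0.193 over 5117 antisense genes, and a replicate block gave 48 higher and 43 lower on the sense strand (11.2% and 10.0%), 312 and 12 on the antisense strand (72.7% and 2.80%) and 271 and 40 for the ratio. With libraries centred on their medians, the sense median was -0.12, and the antisense level rose in 5.83% and fell in 66.2%, with a median of -1.02. Quantile normalization gave sense shares of 4.90% higher and 13.8% lower with a median of -0.31, and antisense shares of 13.1% and 35.7% with a median of -0.23. The pseudocounts 0.1 and 1 gave antisense medians of 1.69 and 0.79, ratio medians of 1.70 and 0.88, and with 1 a group difference of the distance to longer genes of -0.68. With a minimum level the medians were -0.051 on the sense strand, 1.29 on the antisense strand and 1.47 for the ratio, of which 4.20% fell. Of the very short genes 393 passed it on the sense strand and 348 on the antisense strand, 137 of these only through the spt6-1 libraries. Voom on recovered reads gave an antisense median of 1.91. A limit of 600 bases gave medians of 0.078 sense, 0.91 antisense and 0.83 for the ratio. The group difference of the distance to longer genes was then -0.91 antisense and -0.039 sense, and the share difference 4.04 percentage points. A limit of 1000 bases gave a sense median of -0.023 and a share difference of 1.05. There the group difference of the distance was -0.82 antisense and 0.024 sense. Without genes that overlap an opposite coding gene the sense median was -0.063, and 0.671% fell on the antisense strand. The group difference of the antisense distance was then -0.66 and the share difference 0.699. Without the ribosomal protein genes the medians were 0.16 sense and 0.97 antisense, and without the pair of loci with most antisense reads the share difference was 0.969, both chosen after seeing the data.

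Centring shifts every antisense change alike (by -2.10 in the median of the very short genes), and these named genes passed the threshold with the other sign, with log2 changes of -1.05 for pbi2, -1.61 for cuf2, -0.94 for SPAC9E9.01, -1.46 for mug15, -0.81 for rgg8, -1.21 for rps2802, -1.40 for SPAC1834.10c, -1.35 for SPBC15D4.13c, -1.02 for dlc1, -0.60 for SPBC19G7.19, -0.55 for SPBC119.18, -0.57 for mrp10, -1.19 for mrpl19, -0.71 for mug110, -1.08 for SPAC3A11.13, -0.61 for SPCC330.06c, -1.33 for trx1, -0.47 for atp20, -0.82 for cox9, -0.93 for sss1, -1.30 for sbh1, -0.59 for SPBC83.17, -1.38 for apc13, -0.96 for new9, -0.84 for SPAC12G12.17 and -0.80 for SPAC12B10.15c. Under quantile normalization the values were -1.09 for mug15, -0.75 for rgg8, -0.99 for SPAC1834.10c, -1.19 for SPBC15D4.13c, -0.55 for SPBC19G7.19, -0.88 for SPAC3A11.13 and -0.74 for apc13. On the sense strand no named gene passed with the other sign under any setting. Both scalings set the libraries to a common level by construction. Over features of all lengths that held a minimum mean number of reads, the fits called 21 and 19 of 50 simulated 2-fold changes on the sense and antisense strands.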
